A study of Homo sapiens with 59 samples.

Results

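The 8 mRNAs described here encode enzymes that supply deoxynucleotides: RRM1, RRM2 and RRM2B (ribonucleotide reductase), TYMS, DUT and DTYMK (the thymidylate branch), and TK1 and DCK (salvage). They were chosen by name, with earlier results of these data known, out of 34622 distinct gene names in 7 deposited tables. All 8 were listed in each table, and all 8 passed the filter on low values (a mean of at least 10 normalised counts) in all 7 comparisons. Total RNA was sequenced from Jurkat, an established human line of T cell leukaemia, on day 3 in medium with 1 essential amino acid at 25%. The 7 restricted groups (histidine, methionine, phenylalanine, tryptophan, isoleucine, leucine or valine, 5 libraries each) were set against controls: a histidine, a methionine, a phenylalanine and a tryptophan control of 5 libraries each, and a branched-chain (BCAA) control of 4 libraries, numbered 1, 3, 4 and 5, which served isoleucine, leucine and valine alike. The labels name no engineered allele, and all 12 groups, 59 libraries in all, share the line and the time point. Control media concentrations are not in the labels. Nor is it stated that the libraries of a group are separate cultures; the p-values reflect spread between libraries alone, and that spread may be technical.

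Cells make deoxynucleotides by reducing ribonucleoside diphosphates. Ribonucleotide reductase pairs the large subunit RRM1 with a small subunit: RRM2, which is made in S phase and degraded afterwards, or RRM2B, which serves repair and mitochondrial DNA outside S phase. TYMS methylates dUMP to dTMP, DUT hydrolyses dUTP to dUMP and so keeps uracil out of DNA, and DTYMK phosphorylates dTMP. TK1 and DCK phosphorylate thymidine and deoxycytidine taken up or recycled by the cell; TK1 is cell cycle regulated. In proliferating T cells and in T cell leukaemia this supply is a known limit on DNA replication and a drug target.

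Many genes of this group are known targets of E2F factors, so the promoters were searched for E2F-like letters (TTCCCGC or else TTGGCGC, or else TTCGCGC, or else TTGCCGC) and for CCAAT, on both strands, in the 250 bases before RefSeq start sites. In all, 7 of the 8 members had entries, in 12 windows. RRM2B is named only. E2F-like letters stood in windows of 6 of the 7 members (6 of 12 windows), against 10.9% of all 35116 windows and 13% of 27305 genes. CCAAT stood in windows of 4 of the 7 (5 of 12 windows), against 32% of windows and 37% of genes. Members with more than 1 window had more than 1 chance of a match, no match in these windows overlapped another, and a match is a description and not a measured site. The sequences below come from RefSeq on GRCh38.p14, the build family of the files, and are written 5′ to 3′ along the gene's strand. Capitals mark the matched letters, which may read as the reverse complement, such as ATTGG for CCAAT. RRM1 is given whole because it holds both motifs and had the lowest log2 fold change of any member; the others are 30-base stretches around 1 match or a pair of matches.
RRM1 chr11:4094435-4094684 (plus strand): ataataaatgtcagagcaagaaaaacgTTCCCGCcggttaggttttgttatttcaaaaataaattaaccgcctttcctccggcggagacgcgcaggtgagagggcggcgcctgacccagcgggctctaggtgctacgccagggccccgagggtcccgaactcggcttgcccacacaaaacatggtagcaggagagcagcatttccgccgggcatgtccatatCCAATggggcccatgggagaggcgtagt
RRM2 chr2:10122604-10122633 (plus strand): ggcaaggcgcagCCAATgggaagggtcgga
RRM2 chr2:10122365-10122394 (plus strand): ggggcccgcgcGCGCCAAggccgccgagac
TYMS chr18:657603-657632 (plus strand): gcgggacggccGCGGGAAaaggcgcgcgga
DUT chr15:48332152-48332181 (plus strand): ctgGCGGGAAatttcggttTTGGCGCgctc
DTYMK chr2:241686822-241686851 (minus strand): tgttgacgccggCCAATgggagctccggaa
TK1 chr17:78187081-78187110 (minus strand): ggccggctcgtgATTGGccagcacgccgtg
TK1 chr17:78187053-78187082 (minus strand): tggtttaaagcggtcggcGCGGGAAccagg
DCK chr4:70993446-70993475 (plus strand): tccggaacctcTTCCCGCgccctgcccggg

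In RRM2, CCAAT occurred 3 times within the 250 bases before one start site, and the E2F-like letters lay 192 bases before the other. In DUT, an E2F-like match on each strand fell within the same 30 bases. DTYMK was the matched member with CCAAT but without E2F-like letters in its windows. The genes themselves span, in the RefSeq annotation, chr11:4094685-4138932 (RRM1), chr2:10122568-10211010 (RRM2), chr18:657653-673578 (TYMS), chr15:48331095-48343373 (DUT), chr2:241675747-241686815 (DTYMK), chr17:78174079-78187204 (TK1) and chr4:70993649-71030914 (DCK).

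Values are the deposited normalised counts, scaled by the submitters within each table, so every test was run inside 1 table and levels from different tables were normalised separately. Library totals ran from 14949649 to 20539287 normalised counts. All 15 T lineage markers were expressed in every table. Of the markers of other cell types, CD79A stood at 202 to 817 normalised counts and MS4A1, CSF1R, MPO, FCGR3A and PF4 were listed in no table. The summed level of the 23 markers of other cell types was higher where the members changed most, without overlap: 1187 to 1431 normalised counts in restricted against 621 to 731 in control libraries for methionine, and 996 to 1125 against 683 to 907 for tryptophan. For leucine the sum was lower without overlap, 742 to 858 in restricted against 909 to 1396 in control libraries. Of the markers tested, 4 of 8 were called higher and none lower under methionine (CD79A, NCAM1, KRT18 and KRT8; median log2 fold change 0.90) and 3 of 7 higher and none lower under tryptophan (CD79A, COL1A1 and NCAM1; median 0.64), where 27.8% and 23.6% of all genes were higher. Under leucine none of 8 was called. Of the 15 T lineage markers 1 was higher and 6 were lower under methionine, and 4 were higher and 4 lower under tryptophan. The part of these markers in the members' changes was not tested. Some libraries stood apart. Control library 3 of histidine and control library 1 of phenylalanine had summed epithelial and fibroblast markers (EPCAM, KRT8, KRT18, COL1A1, COL1A2) of 6787 and 3161 normalised counts, against 281 to 1329.6 in all other libraries, and their median correlations with their group were 0.915 and 0.874. Ribosomal protein mRNA was set against the mean of the other libraries of the same group. It was higher by 1.06 (log2) in branched-chain control library 1 and by 0.95 in phenylalanine restricted library 2. The excess was 0.71 in phenylalanine control library 1 and 0.51 in valine restricted library 2. The values they moved most are given with and without them, and the part of these markers or of ribosomal protein mRNA in them was not tested.

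Against the controls of the same table, the supply mRNAs responded most to methionine and tryptophan restriction. They responded in part to histidine and phenylalanine restriction, and little to shortage of a branched-chain amino acid. Control levels differed between tables, and a difference in response cannot be told apart from a difference in control level. Of 56 pairs of gene and comparison, 27 passed the test (limma on log2(normalised count + 1), adjusted p below 0.05 over all genes of the table), 22 lower and 5 higher. TK1 was called in the most comparisons: it fell in 6 of 7. RRM1 fell in 4 and rose in 1, and RRM2, TYMS and DUT each fell in 3. RRM2B went the other way: it rose in 3, where 15.6% to 27.8% of all genes rose, and fell in none. DTYMK rose in 1 and fell in 1, and DCK fell in 2. The RNA comes from whole cultures, so fewer cells in S phase and less of an mRNA per cell cannot be told apart.

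Under tryptophan restriction all 8 members changed, 7 lower and 1 higher, where 27.7% of all 16630 genes tested were lower and 23.6% higher. Their median log2 fold change was -0.89, beside 0.03 over all genes, and 7 were lower with no overlap between the groups (background 21.9%) and 1 higher (background 15.6%). Under methionine restriction 6 fell and 1 rose (background 25.4% and 27.8%), with a median of -1.10 beside 0.02 over all genes, and the groups did not overlap for 4 lower and 1 higher (background 19% and 20.9%). Under histidine restriction 4 fell and 2 rose (background 12.3% and 15.6%), with a median of -0.21 beside -0.01, and 2 lower and 2 higher did not overlap (background 8.2% and 12%). Under phenylalanine restriction 3 fell and none rose (background 6.09% and 4.11%), with a median of -0.06 beside 0.03, and 2 lower did not overlap (background 6.1%; none higher, background 5.55%).

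Leucine restriction raised 1 member, RRM1, and lowered 1, TK1 (background 3.41% higher and 4.33% lower), and the groups of these 2 did not overlap (background 6.32% and 6.81%). Valine restriction lowered TK1 (background 7.36%) and raised none (background 5.13%), and 2 members, TK1 and RRM1, were lower without overlap (background 9.13%; none higher, background 6.28%). Under isoleucine restriction no member passed the test, nor did any of the 16623 genes (0% higher, 0% lower; smallest limma adjusted p = 0.0582; no other tool was run). At an unadjusted p below 0.05 stood 872 genes, among them 1 member, RRM1, which was also the 1 member without overlap, higher (background 1.19%; none lower, background 0.818%). Isoleucine, leucine and valine share the control libraries, so their values are not independent.

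**Figure D1:**
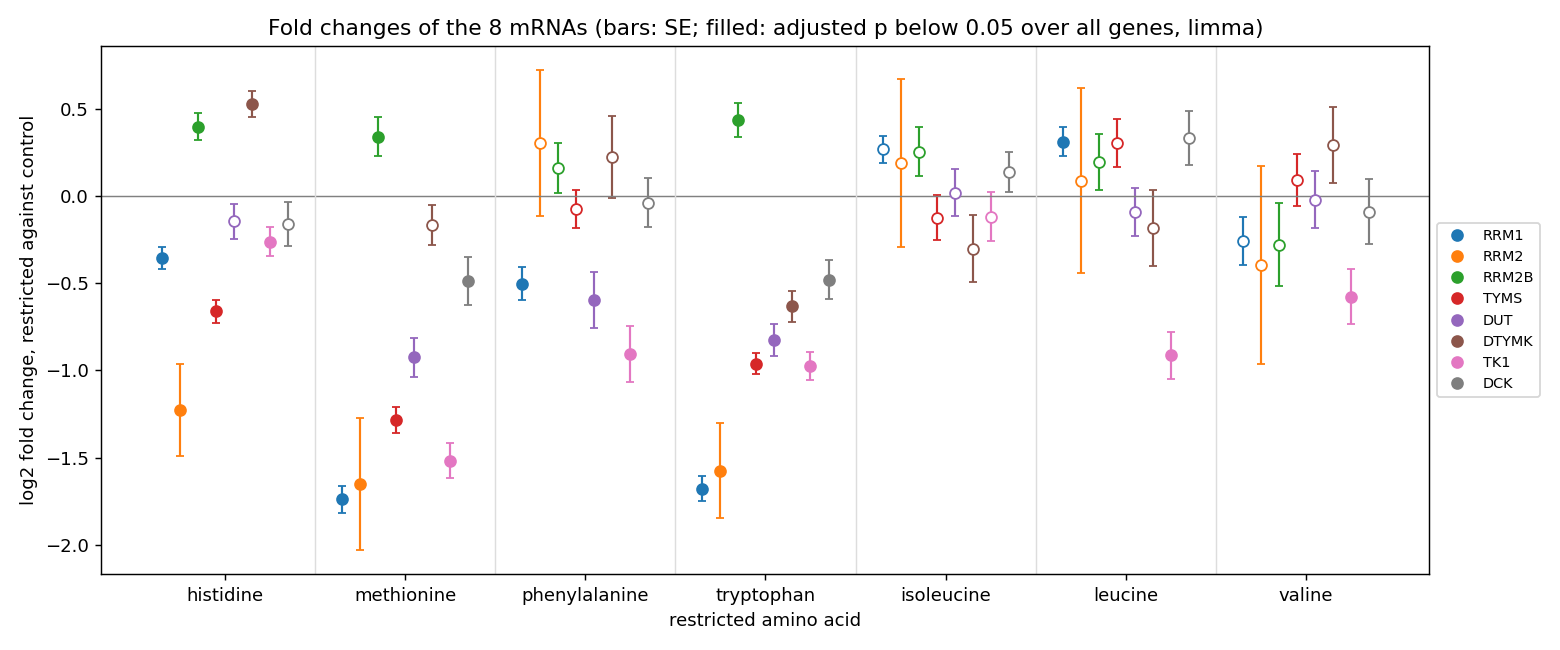
Log2 fold change (restricted against control, y axis) of each of the 8 mRNAs for each restricted amino acid (x axis); bars are SE and filled points have a limma adjusted p below 0.05 over all genes. TK1 is filled below 0 for every amino acid but isoleucine, and RRM2B is filled above 0 for histidine, methionine and tryptophan.

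The large subunit of ribonucleotide reductase, RRM1, fell most under methionine and tryptophan restriction. In the methionine table, control libraries 1 to 5 held 4150.1, 5116, 4878, 4052 and 5004 normalised counts and restricted libraries 1 to 5 held 1395, 1350.5, 1383, 1327 and 1467. Every restricted library lay below every control library, and RRM1 fell 3.34-fold (log2 fold change -1.74, SE 0.08, limma adjusted p = 7.85e-10). In the tryptophan table the controls held 7151, 6595, 6003, 6519 and 5755 and the restricted libraries 1842, 1871, 2288, 1968 and 2042. Again no values overlapped, and the mRNA fell 3.2-fold (log2 fold change -1.68, SE 0.07, limma adjusted p = 4.6e-10). These 2 responses did not differ beyond their error (difference -0.06, SE 0.11, limma adjusted p = 0.657). Relative to all genes, RRM1 stood at the 0.692 percentile of fold changes under tryptophan restriction and at the 3.65 percentile under methionine restriction.

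Smaller drops of RRM1 followed histidine and phenylalanine restriction. Histidine controls held 4419.9, 4246, 3873, 4538 and 4062 normalised counts and restricted libraries 3241, 3199, 3306, 3619.6 and 3158, without overlap, a fall of 1.28-fold (log2 fold change -0.35, SE 0.06, limma adjusted p = 0.0011). Phenylalanine controls held 1953, 2206, 2296, 2383 and 2171 and restricted libraries 1645, 1310.4, 1616, 1586 and 1616, also without overlap, a fall of 1.42-fold (log2 fold change -0.50, SE 0.09, limma adjusted p = 0.00571). Restricted library 2, high in ribosomal protein mRNA, was the lowest of that group. Without it and control library 1 the log2 fold change of RRM1 was -0.49 (limma adjusted p = 6.07e-05). Without histidine control library 3 it was -0.39 (limma adjusted p = 0.000981). The histidine calls of the other members also held without that library, except that of TK1.

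Leucine restriction moved RRM1 the other way. In the leucine table the 4 control libraries held 1863, 1926, 2023 and 1867 normalised counts and the restricted libraries 2464, 2391, 2448, 2196 and 2409. All restricted values were above all control values, and RRM1 rose 1.24-fold (log2 fold change 0.31, SE 0.08, limma adjusted p = 0.0399). That call was close to the threshold: it was lost with no filter on low values (adjusted p = 0.078), with a replicate block (0.111) and when any 1 of 7 libraries was left out, and it was kept without control library 1 (log2 fold change 0.30, adjusted p = 0.0262). Against the same controls, restricted libraries held 2314 to 2519 under isoleucine restriction (log2 fold change 0.27, SE 0.08, limma adjusted p = 0.797) and 1244 to 1924 under valine restriction (log2 fold change -0.26, SE 0.14, limma adjusted p = 0.239), where the controls held 1939 to 2114 and 1974 to 2136.

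RRM2, the S phase small subunit, fell under the same 3 restrictions that raised RRM2B. Histidine controls held 2433, 1197, 714, 920.03 and 1135 normalised counts and restricted libraries 430.3, 739, 427, 561 and 403. The groups overlapped at restricted library 2 and control library 3, and the mRNA fell 2.34-fold (log2 fold change -1.23, SE 0.26, limma adjusted p = 0.0036). Without control library 3 the log2 fold change was -1.40 (limma adjusted p = 0.00129). Methionine controls held 614, 932, 587, 725 and 979 and restricted libraries 213, 232, 794, 165 and 118. Restricted library 3 reached the control range while the other 4 lay between 118 and 232, and the mRNA fell 3.14-fold (log2 fold change -1.65, SE 0.38, limma adjusted p = 0.00214). Tryptophan controls held 6315, 2654, 2906, 5800.5 and 4007 and restricted libraries 1572, 2506, 995, 1164 and 1054, with no overlap, and RRM2 fell 2.98-fold (log2 fold change -1.57, SE 0.27, limma adjusted p = 0.000226).

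In the other 4 comparisons RRM2 was not called, and its libraries were widely spread. Under phenylalanine restriction they held 1217, 301, 1122, 362 and 354 normalised counts, against 712, 450.5, 346, 277 and 601 in the controls (log2 fold change 0.30, SE 0.42, limma adjusted p = 0.707). The 4 branched-chain controls, in the isoleucine table, held 372, 251, 1002 and 1527. Restricted libraries ran from 424 to 1313 for isoleucine, 298 to 1383 for leucine and 157 to 969 for valine, and the SE of the log2 fold change was 0.48, 0.53 and 0.57. Without control library 1 the log2 fold changes of RRM2, 0.19, 0.0878 and -0.40, became -0.0538, -0.15 and -0.63, none called, and without both phenylalanine libraries high in ribosomal protein mRNA the phenylalanine value was 0.69 (adjusted p = 0.219).

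RRM2 spread widely between libraries of 1 group. Its coefficient of variation was 23.5% to 91.1% over the groups, at the 94.6 to 100 percentile of genes within 1.5-fold of its level in the same group. RRM1 varied by 3.54% to 16.2% (percentile 1.9 to 73.5) and TYMS by 4.08% to 24.5% (percentile 21.9 to 80.1). The other members reached part of the RRM2 range in some groups: DTYMK varied by 5.06% to 38.1% (percentile 16.4 to 95.5), RRM2B by up to 26.7% (percentile up to 94.9), DUT by up to 26.5% (93.3), TK1 by up to 23.2% (79.9) and DCK by up to 21.5% (94.4). In restricted methionine libraries the highest RRM2 value was 6.72 times the lowest, and in the 4 branched-chain controls 6.10 times. The deviations of RRM2 from its group mean did not track those of the other 7 members: over the 40 libraries of the histidine, methionine, phenylalanine and tryptophan tables, within-group Pearson r was between -0.32 (TK1) and 0.12 (RRM2B), given as a description. The highest with any gene was 0.65. A processed RRM2 copy, RRM2P3, was listed at 0 to 14.0 normalised counts. The sources used here do not give how the authors' counting divided reads between such copies.

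**Figure D2:**
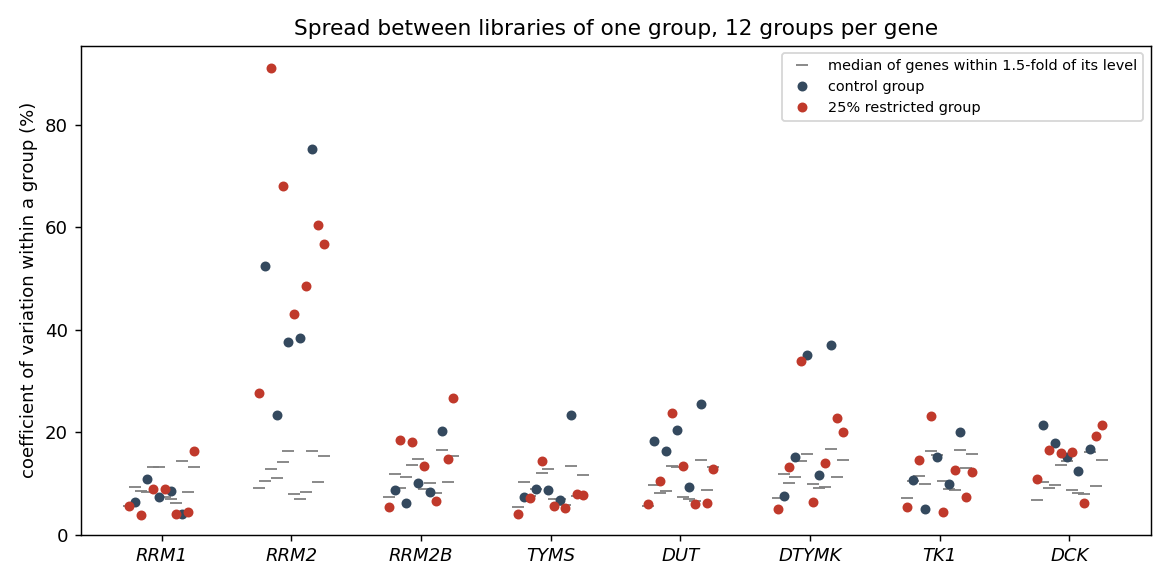
Coefficient of variation between libraries of 1 group (y axis, percent) for each member (x axis), 1 point per group; grey dashes are the median of genes within 1.5-fold of the member's level in that group. RRM2 lies between 23.5% and 91.1%, above the dashes in every group.

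RRM2B, the small subunit used outside S phase, rose under histidine, methionine and tryptophan restriction. Histidine controls held 610.1, 689, 761, 739 and 665 normalised counts and restricted libraries 869, 861, 949, 972 and 903, with no overlap, a rise of 1.32-fold (log2 fold change 0.40, SE 0.08, limma adjusted p = 0.00214). Methionine controls held 754, 723, 675, 679 and 775 and restricted libraries 805, 844, 981, 788 and 1198, a rise of 1.26-fold (log2 fold change 0.34, SE 0.11, limma adjusted p = 0.0185). Tryptophan controls held 601, 575, 505, 606 and 517 and restricted libraries 647, 920.1, 712, 742 and 783, a rise of 1.35-fold (log2 fold change 0.43, SE 0.10, limma adjusted p = 0.00169). The lowest restricted value exceeded the highest control value in all 3, and each call held in all alternatives run. Relative to all genes, RRM2B stood at the 84.1 percentile of fold changes for histidine, 68.1 for methionine and 74.1 for tryptophan. Of all genes, 15.6%, 27.8% and 23.6% were called higher in the same order. In phenylalanine the log2 fold change was 0.16 (limma adjusted p = 0.524), and without the libraries high in ribosomal protein mRNA it was 0.26 (adjusted p = 0.0422). In the branched-chain comparisons it was 0.25, 0.19 and -0.28 for isoleucine, leucine and valine, none called. Control library 1, high in ribosomal protein mRNA, was the lowest control there, and valine restricted library 2 the lowest of its group at 303 normalised counts. Without control library 1 the values were 0.0883, 0.0301 and -0.44. Without valine restricted library 2 the valine value was -0.0654, and without both it was -0.22 (adjusted p = 0.107). None of these was called.

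The balance of the small subunits was taken as the log2 ratio of RRM2 to RRM2B within each library, which does not depend on the scaling between libraries. It is not corrected for transcript length, so only its differences between groups are read. Under histidine restriction the ratio was -1.01, -0.22, -1.15, -0.79 and -1.16, against 1.99, 0.80, -0.09, 0.31 and 0.77 in the controls. Under methionine restriction it was -1.91, -1.86, -0.31, -2.25 and -3.33, against -0.30, 0.36, -0.20, 0.09 and 0.34. Under tryptophan restriction it was 1.28, 1.445, 0.48, 0.65 and 0.43, against 3.39, 2.20, 2.52, 3.26 and 2.95. In all 3 every restricted library lay below every control library, in methionine only just. The means differed by -1.62, -1.99 and -2.01, each with an exact two-sided permutation p of 0.00794 (the smallest that 5 against 5 allows) and 0.0185 after Benjamini-Hochberg adjustment over the 7 comparisons. For phenylalanine, isoleucine, leucine and valine the differences were 0.14, -0.06, -0.11 and -0.12 (exact permutation p 0.770, 0.921, 0.881 and 0.857; 5 against 4 cannot go below 0.0159), and the groups overlapped. Every tryptophan control ratio lay above every control ratio of the other tables. In the restricted arm the tryptophan mean (0.86) was the highest. Its libraries there overlapped those of phenylalanine, isoleucine, leucine and valine, where leucine restricted library 2 reached 1.29. RRM2 in the tryptophan controls held 2654 to 6315 normalised counts.

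**Figure D3:**
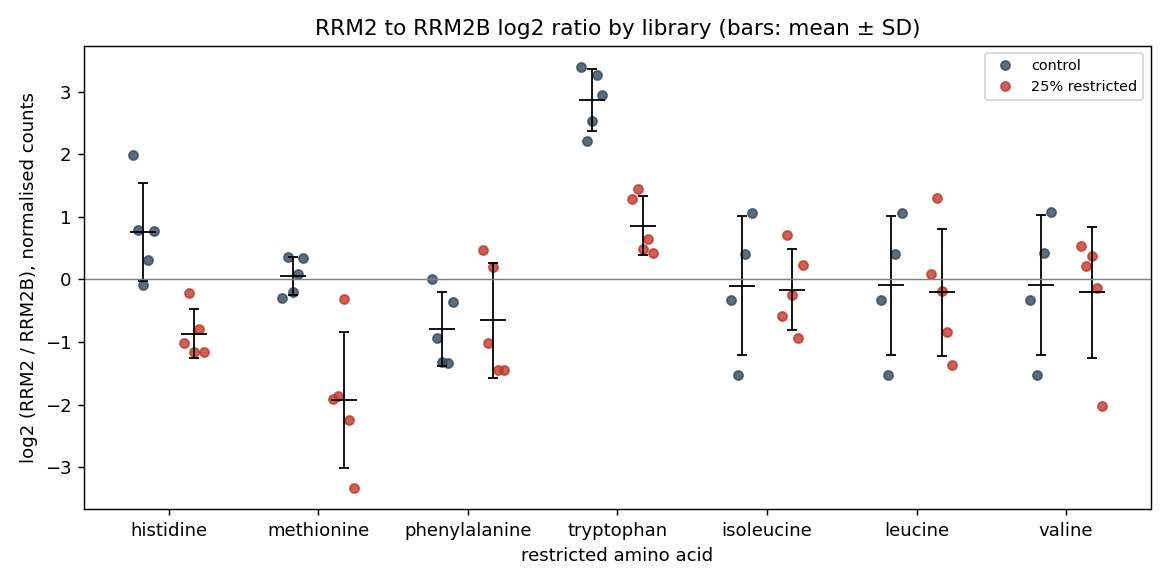
Log2 ratio of RRM2 to RRM2B normalised counts (y axis) for each library, by restricted amino acid (x axis) and arm; bars are mean ± SD. The restricted points lie below all control points for histidine, methionine and tryptophan and mix with them elsewhere.

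On the thymidylate branch, TYMS fell under histidine, methionine and tryptophan restriction with little spread. Histidine controls held 6937, 6919.6, 6335, 7366 and 7700.2 normalised counts and restricted libraries 4385, 4202, 4429.9, 4529 and 4694, and TYMS fell 1.58-fold (log2 fold change -0.66, SE 0.06, limma adjusted p = 6.68e-06). Methionine controls held 7535, 7683, 8305, 6564 and 8116 and restricted libraries 2914, 3137, 3105, 3503 and 3025, and it fell 2.43-fold (log2 fold change -1.28, SE 0.07, limma adjusted p = 1e-08). Tryptophan controls held 7612, 6804, 7017, 6971 and 6318 and restricted libraries 3232, 3571, 3765, 3655 and 3581, and it fell 1.95-fold (log2 fold change -0.96, SE 0.06, limma adjusted p = 1.2e-08). The groups were apart in all 3. The methionine fall exceeded that under tryptophan (difference -0.32, SE 0.09, limma adjusted p = 0.00702) and under histidine (0.62 as histidine minus methionine, SE 0.10, limma adjusted p = 3.48e-05).

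Elsewhere TYMS did not pass the test with all libraries, with log2 fold changes of -0.08 for phenylalanine, -0.13 for isoleucine, 0.30 for leucine and 0.09 for valine. In the leucine table the restricted libraries held 4079, 5023, 4585, 4309 and 4635 normalised counts and the controls 4950.5, 2878, 3575 and 3504. Control library 1, high in ribosomal protein mRNA, was the highest control, and without it the leucine value was 0.45 and passed (limma adjusted p = 0.00999). Without the same library the isoleucine value was 0.0200 and the valine value 0.24, neither called. TYMSOS and ENOSF1, which overlap TYMS on the other strand, were at 0 to 73.3 and 157 to 394 normalised counts. The libraries are strand-specific by the labels, but strand use in the counting is not known here, so reads of these genes and of TYMS cannot be fully told apart.

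DUT, which clears dUTP, fell under methionine, tryptophan and phenylalanine restriction. Methionine controls held 3057, 3086, 3705, 2364 and 3489.7 normalised counts and restricted libraries 1628, 1549.8, 1430.3, 1706 and 1889.8, apart, a fall of 1.9-fold (log2 fold change -0.93, SE 0.11, limma adjusted p = 9.39e-06). Tryptophan controls held 4092, 3463, 3717, 3879 and 3228 and restricted libraries 1690.1, 2385, 2255, 1913 and 2170.1, apart, a fall of 1.77-fold (log2 fold change -0.83, SE 0.09, limma adjusted p = 4.27e-06). Phenylalanine controls held 2648, 1815, 1789, 1726 and 1734 and restricted libraries 1166, 1838, 1161, 1170.1 and 1118. The 2 libraries high in ribosomal protein mRNA, control 1 and restricted 2, were each the highest of their group, and restricted library 2 overlapped the controls. DUT fell 1.51-fold (log2 fold change -0.60, SE 0.16, limma adjusted p = 0.036); the call was lost with a replicate block (adjusted p = 0.0786) and when any 1 of 8 libraries was left out, and without both libraries named the log2 fold change was -0.61 (adjusted p = 9.72e-06).

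DUT was not called under histidine restriction, where restricted libraries held 2678 to 3118 normalised counts and controls 2822 to 4266 (log2 fold change -0.15, SE 0.10, limma adjusted p = 0.299). Log2 fold changes were 0.02, -0.09 and -0.02 for isoleucine, leucine and valine, and 0.18, 0.0749 and 0.15 without control library 1, none called. DUT-AS1, on the other strand, was at 22.5 to 304 normalised counts, and the processed copies DUTP1, DUTP2 and DUTP6 at 0 to 38.2 at most.

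DTYMK, the kinase that follows TYMS, was called in opposite directions in 2 comparisons. Under histidine restriction it rose: controls held 641, 777, 681, 664 and 698 normalised counts and restricted libraries 1034, 1039, 967, 920.1 and 1012, all above the controls, a rise of 1.438-fold (log2 fold change 0.52, SE 0.07, limma adjusted p = 0.000175). Under tryptophan restriction it fell: controls held 866, 748, 924, 697 and 884 and restricted libraries 529, 577, 494, 542 and 501, all below the controls, a fall of 1.55-fold (log2 fold change -0.63, SE 0.09, limma adjusted p = 3.37e-05). The 2 responses differed by 1.16 (SE 0.11, limma adjusted p = 2.78e-08, where 43.3% of genes differed between these responses). Under methionine restriction its log2 fold change was -0.17 (limma adjusted p = 0.245), with controls at 606 to 883 and restricted libraries at 516 to 708.

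DTYMK was not called in the remaining comparisons with all libraries, whose libraries high in ribosomal protein mRNA were also its highest. Phenylalanine restricted library 2 held 999.98 normalised counts against 499 to 589.7 in the other 4, phenylalanine control library 1 held 864 against 395 to 522, and branched-chain control library 1 held 1017 against 505 to 579.6 in the isoleucine table. For valine the log2 fold change was 0.29 (limma adjusted p = 0.412); without control library 1 it was 0.53 (adjusted p = 0.0448), and without that library and restricted library 2 it was 0.43 (adjusted p = 0.0202). For leucine it was -0.19, and 0.0467 without control library 1, and for isoleucine it was -0.30, and -0.0699 without that library. For phenylalanine it was 0.22, and it was 0.0397 without restricted library 2, 0.41 without control library 1 and 0.23 without both (adjusted p = 0.142), none called.

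TK1, the S phase thymidine kinase, was lower in 6 of the 7 comparisons. Methionine controls held 1144, 1246, 1269, 1131 and 1199 normalised counts and restricted libraries 382, 495, 438, 452 and 339, a fall of 2.86-fold (log2 fold change -1.52, SE 0.10, limma adjusted p = 3.15e-08). Tryptophan controls held 848, 939.8, 1054, 841 and 992 and restricted libraries 479.6, 442, 496, 485 and 466, a fall of 1.97-fold (log2 fold change -0.98, SE 0.08, limma adjusted p = 1.49e-07). Phenylalanine controls held 655, 534, 524, 738 and 562 and restricted libraries 265, 452, 285, 335 and 288, a fall of 1.87-fold (log2 fold change -0.90, SE 0.16, limma adjusted p = 0.004). In none of the 3 did the groups overlap, and without the libraries high in ribosomal protein mRNA the phenylalanine value was -0.997 (adjusted p = 9.07e-05).

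Leucine and valine restriction also lowered TK1. The 4 controls held 846, 603, 573 and 583 normalised counts and the restricted libraries 318, 363, 372, 318 and 336, a fall of 1.88-fold (log2 fold change -0.91, SE 0.13, limma adjusted p = 0.00216). Control library 1 was the highest control, and without it the log2 fold change was -0.78 (adjusted p = 0.00075). In the valine table the controls held 914, 636, 609.7 and 621 and the restricted libraries 447, 519, 388, 435 and 516, a fall of 1.49-fold (log2 fold change -0.58, SE 0.16, limma adjusted p = 0.0307). These groups did not overlap either; the valine call was lost when any 1 of 5 libraries was left out (adjusted p up to 0.0805), and without control library 1 the log2 fold change was -0.44 (adjusted p = 0.0456). Histidine restriction gave the smallest called change: controls held 1114, 1223, 1251, 1385 and 1055 and restricted libraries 1018, 944, 1079, 1007 and 959, overlapping, a fall of 1.2-fold (log2 fold change -0.26, SE 0.08, limma adjusted p = 0.027). That call was lost with trimmed mean scaling (adjusted p = 0.0657) and when any 1 of 6 libraries was left out, control library 3 among them (0.0516). Under isoleucine restriction TK1 was not called: restricted libraries held 538 to 732 and controls 593 to 875 (log2 fold change -0.12, SE 0.14, limma adjusted p = 0.834; 0.0137 without control library 1).

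DCK, which activates deoxycytidine and several nucleoside drugs, was called in 2 comparisons. It fell under methionine restriction, from 1205, 1498, 1593, 1020.2 and 1532 normalised counts in the controls to 1006, 978, 732, 967 and 1185, overlapping, a fall of 1.4-fold (log2 fold change -0.49, SE 0.14, limma adjusted p = 0.00871). It fell under tryptophan restriction, from 1523, 1181, 1188, 1329 and 1139 to 725, 1053, 808, 934 and 1061, without overlap, a fall of 1.4-fold (log2 fold change -0.48, SE 0.11, limma adjusted p = 0.00259); after scaling all libraries to equal totals the tryptophan call was lost (log2 fold change -0.24, adjusted p = 0.0814). In the other 5 comparisons its log2 fold change was between -0.16 (histidine) and 0.33 (leucine), none called.

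**Figure D4:**
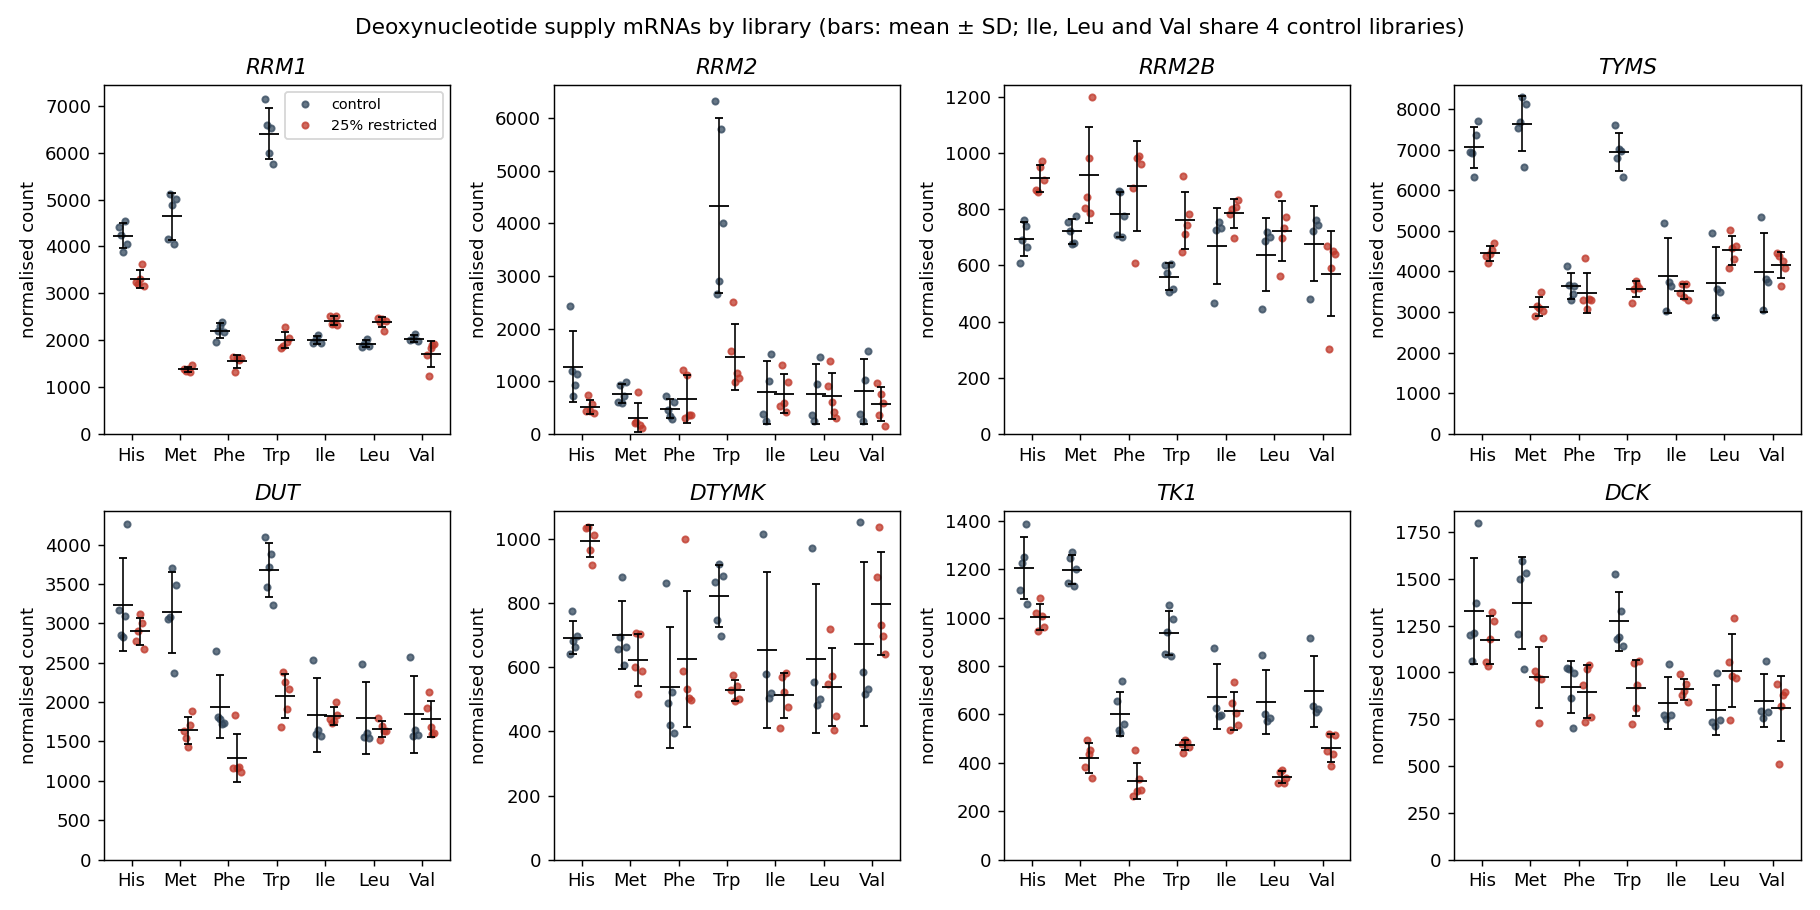
Normalised counts (y axis) of each member in each library, by restricted amino acid (x axis) and arm, with mean ± SD; isoleucine, leucine and valine share 4 control libraries, and tables were normalised separately. For RRM1 and TYMS the histidine, methionine and tryptophan controls sit above the phenylalanine and branched-chain controls.

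The level of the members differed between control groups as well, with the reservation that tables were normalised separately. For RRM1 the order of group means ran from tryptophan control (6405 ± 545), methionine control (4640.1 ± 500.4) and histidine control (4228 ± 268) through histidine restricted (3305 ± 184) to methionine restricted (1384 ± 53.5; SD). Among neighbours in that order, tryptophan control, histidine control and histidine restricted did not overlap with the next group, and all later neighbours did. The means of the phenylalanine and branched-chain controls (2202 ± 162, n = 5, and 2004.5 ± 81.3, n = 4) lay in the range of the tryptophan restricted libraries. The latter held 1842 to 2288 (2002 ± 179, n = 5), and phenylalanine controls reached 2383. For TYMS the methionine, histidine and tryptophan controls (7641, 7052 and 6944) were above all 9 other groups, whose means ran from 3137 (methionine restricted) to 4526 (leucine restricted); that gap was the 1 break in an order that otherwise overlapped. For DUT the means of the same 3 controls and of histidine restricted (2897 to 3676) lay above the other means (1291 to 2083). Their libraries were not all apart: methionine controls reached down to 2364, below the highest phenylalanine control (2648). Between neighbours TK1 broke at 2 points, below the methionine control (1198) and below the phenylalanine control (603). Histidine control (mean 1205, lowest library 1055) stood first but overlapped histidine restricted (highest library 1079). RRM2 broke at 1 point, below the tryptophan control (4336 ± 1662). RRM2B, DTYMK and DCK overlapped with the next group at every step.

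Whether a member responded differently to 2 restrictions was tested for all 21 pairs and 8 members. Of these 168 tests, 71 passed (limma adjusted p below 0.05 over all genes of the pair). For pairs with separate controls, restricted minus control in 1 table was set against the same in the other. Control levels differed between tables, so a different response and a different control level cannot be told apart. The branched-chain pairs were tested in another way, given below. RRM1 and TYMS differed in 16 of 21 pairs each, TK1 in 13, DUT and DTYMK in 8 each, RRM2 in 5, DCK in 4 and RRM2B in 1. The largest counts were 6 of 8 members in methionine against isoleucine (37.2% of all genes differed) and in tryptophan against isoleucine (33.1%). Histidine differed from methionine for 5 members (34.4%), from tryptophan for 5 (43.3%), from leucine for 4 (16.6%), from isoleucine for 3 (12.2%), from phenylalanine for 2 (9.66%) and from valine for 1, TYMS (13.2%). Methionine differed from leucine for 5 (37.2%) and from phenylalanine and valine for 4 each (29.4% and 28.3%). Tryptophan differed from leucine and valine for 5 each (40.2% and 35.2%) and from phenylalanine for 4 (32.6%). Phenylalanine differed from isoleucine for 2, RRM1 and TK1 (5.5%), from leucine for 1, RRM1 (4.68%), and from valine for none (0.691%).

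Methionine and tryptophan, where 53.6% of genes differed, did so for 3 members: TYMS, TK1 (-0.54, SE 0.13, adjusted p = 0.000953) and DTYMK (0.47, SE 0.15, adjusted p = 0.0111). For RRM1, RRM2, RRM2B, DUT and DCK no difference was detected; for RRM2 the SE of the difference was 0.52, so a sizeable one could be missed. RRM1 differed between leucine and each of histidine (-0.67), methionine (-2.05), phenylalanine (-0.81) and tryptophan (-1.99), where 16.6%, 37.2%, 4.68% and 40.2% of genes did. The branched-chain restrictions share controls, so their restricted libraries were set against each other after subtraction of the control mean. Spread between control libraries did not enter, so their SE and background shares do not compare with those of other pairs. There, TK1 was lower under leucine than under isoleucine (isoleucine minus leucine 0.79, SE 0.10, limma adjusted p = 0.000906; background 14.4%) and TYMS higher (-0.43, SE 0.07, adjusted p = 0.00476). Isoleucine and valine differed for 3 members (RRM1, DTYMK and TK1; background 26.2%) and leucine and valine for RRM1 alone (background 19.1%).

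Beyond the 8 members, 29 other genes of deoxynucleotide and folate metabolism, transport and control were listed, of which 26 or 27 were tested per table. Under tryptophan restriction 15 of 27 fell and 2 rose (median -0.21; 27.7% of all genes lower and 23.6% higher), and under methionine restriction 12 of 26 fell and 7 rose (median -0.10; 25.4% and 27.8%). Under histidine restriction 8 of 26 fell and 4 rose (median -0.09; 12.3% and 15.6%), under phenylalanine restriction 5 of 27 fell and 1 rose (median -0.14; 6.09% and 4.11%), and the median over all genes stayed between -0.01 and 0.03 throughout. Leucine gave 1 lower and 1 higher of 26 (all genes 4.33% and 3.41%), valine 2 and 2 (7.36% and 5.13%), and isoleucine none (0% and 0%). The leucine and valine counts and the rises under methionine, histidine and phenylalanine restriction were near the share of all genes.

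The equilibrative nucleoside carrier SLC29A1, which brings in substrates of TK1 and DCK, fell under methionine (log2 fold change -1.59), tryptophan (-1.54), phenylalanine (-0.74) and valine (-0.56) restriction. MTHFD1, a folate cycle enzyme, fell under methionine (-1.44) and tryptophan (-1.55) restriction. Methionine restriction also lowered ADA (-1.50), an adenosine deaminase, the second carrier SLC29A2 (-1.49) and the mitochondrial nucleotidase NT5M (-2.40, from 405 ± 39.5 to 76.6 ± 14.0 normalised counts). Tryptophan restriction lowered DCTPP1 (-1.49) and NUDT1 (-1.38), which remove altered deoxynucleotides. Histidine restriction raised the guanylate kinase GUK1 (0.74) and lowered the purine nucleoside phosphorylase PNP (-0.77). The diphosphate kinases NME1 (-1.58 in tryptophan) and NME2 (-1.48 in methionine, -1.05 in phenylalanine, -1.01 in valine) are near-identical, so how their reads were divided is uncertain. DGUOK, the mitochondrial deoxyguanosine kinase, fell under leucine (-0.64) and rose under valine (0.65) restriction, and MTHFD1 rose under leucine (0.41). Of these, the leucine calls of DGUOK and MTHFD1 were lost in 5 and 8 of 16 alternatives and the valine call of SLC29A1 in 4 of 16 (adjusted p up to 0.0649), and the others held in all that were run. All named values are limma log2 fold changes with an adjusted p below 0.05.

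Replication genes moved with the members in some comparisons. All 34 E2F and S phase genes fell under methionine (median -1.36) and tryptophan (-1.33) restriction, where 25.4% and 27.7% of all genes fell, led by MCM2 (-1.85), POLD1 (-1.69) and CDT1 (-2.09) for methionine and MCM10 (-2.11), MCM2 (-1.58) and E2F2 (-1.77) for tryptophan. Under histidine restriction, where RRM2 and TYMS fell, 7 of the 34 fell and 6 rose (median -0.02), the rises near the share of all genes (12.3% lower, 15.6% higher); MCM2 (-0.81), SLBP (-0.51) and FEN1 (-0.55) fell. Under phenylalanine restriction 6 fell and none rose (all genes 6.09% and 4.11%), CDT1 (-1.12), MCM10 (-0.63) and CDC6 (-0.46) among them. Under leucine restriction 6 rose and none fell (all genes 3.41% and 4.33%), MCM4 (0.61), GINS1 (0.90) and UHRF1 (0.49) among them, beside the fall of TK1. Under valine 4 rose and 3 fell (all genes 5.13% and 7.36%): CDT1 (-1.20) and RPA1 (-0.60) fell and FEN1 (0.55) rose, the last a call lost in 4 of 16 alternatives. Of 18 G2 and mitosis genes, 16 fell under methionine, 13 under tryptophan, 9 under histidine, 6 under phenylalanine and 5 under valine. In that list PLK1 (0.41) and TPX2 (0.26) rose under histidine, CDC20 (0.28) under methionine and TPX2 (0.37) under leucine, and none rose elsewhere. These genes, and the called markers of other cell types above, are named after their values were seen. The shares of all genes that fell were 25.4%, 27.7%, 12.3%, 6.09% and 7.36% in the same order. The CDC6 call in phenylalanine was lost with a replicate block (adjusted p = 0.0566).

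**Figure D5:**
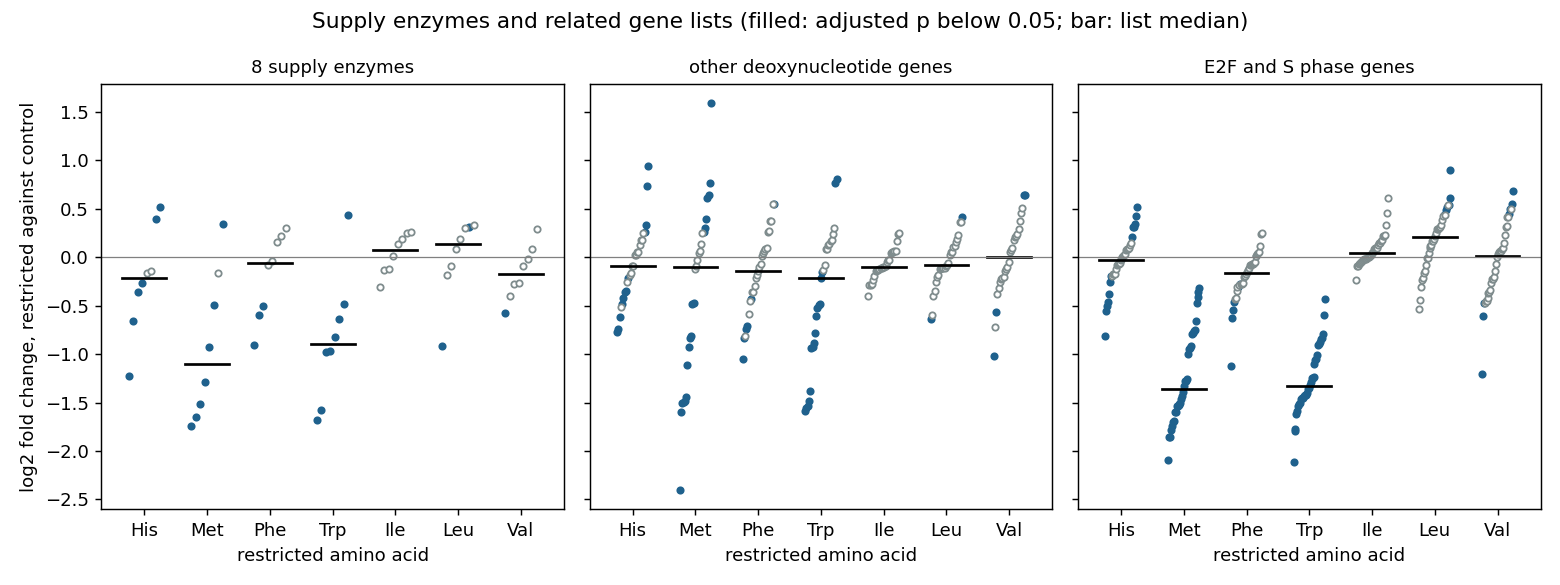
Log2 fold change (y axis) of each tested gene of 3 lists, by restricted amino acid (x axis); filled points have a limma adjusted p below 0.05 and the bar is the list median. All E2F and S phase genes lie below 0 for methionine and tryptophan, where the members have medians of -1.10 and -0.89.

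The genes whose pattern was most like each member were read over the 40 libraries of the histidine, methionine, phenylalanine and tryptophan tables, centred within tables, among 15505 genes. These Pearson correlations carry the shared response and shared libraries and are descriptions. RRM1 was most like DTL (0.98), MCM6 (0.98) and CDC6 (0.97), and 123 genes exceeded 0.9. TYMS was most like TUBA1B (0.98), TUBA1A (0.97) and MCM2 (0.96), TK1 like CDT1 (0.97), PKM (0.97) and GAPDH (0.96), and DUT like MND1 (0.95), RSL24D1 (0.94) and RGCC (0.94). RRM2 reached only 0.80 (SLF1), 0.77 (INTS8) and 0.76 (XRCC2). RRM2B was most like RC3H2 (0.87), DTYMK like PSMB6 (0.89) and DCK like MATR3 (0.82), and none of these 4 members had a gene above 0.9. Among the members themselves, RRM1 and TYMS correlated at 0.91, RRM1 and TK1 at 0.88, TYMS and TK1 at 0.85 and TYMS and RRM2B at -0.72.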

How the data were processed

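RNA from Jurkat libraries was prepared strand-specifically and, per the submitters' processing notes, handled with FastQC 0.11.9, kallisto 0.50.1 and DESeq2 1.44.0 on GRCh38. The authors deposited 7 tables of normalised counts per gene (a depth-scaled signal, not counts, scaled by the authors within each table). The sources used here do not give settings, annotation release or strand use. At most 81.6% of low values came out as whole reads (within 0.1), so no count model was run. Each restricted group was compared with its control inside its own table with limma 3.58.1 (R 4.3.3; trended empirical Bayes on log2(value + 1), genes with a mean of at least 10, Benjamini-Hochberg over all genes, two-sided, threshold 0.05). Ratios were tested by exact permutation over libraries. The members and gene lists were chosen with earlier results of these data known. Other list genes are named by rule: the 3 called with the smallest adjusted p, plus deoxynucleotide genes past a log2 change of 1; some items the rule would name are not reported here. The procedure was tested on simulated data with spread independent between genes, which does not cover libraries that shift many genes together. Library totals (14949649 to 20539287 normalised counts) limit the precision of low values; the alternatives tried were the pseudocount, the filter, the scaling, a replicate block and omission of each library.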

Additional observations from a re-analysis of the deposited data

Results flagged for a closer look

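Values far from the rest of their own group were looked for in 96 groups of 4 or 5 libraries, and 17 were found; chance alone marks about 1 in 20 groups. RRM2 was high in histidine control library 1 (2433 normalised counts, the others 714 to 1197) and in methionine restricted library 3 (794, the others 118 to 232). DUT was high in histidine control library 5 (4266), phenylalanine restricted library 2 (1838), phenylalanine control library 1 (2648) and branched-chain control library 1 (2537). DTYMK was high in the last 3 of these libraries (999.98, 864 and 1017), TYMS in phenylalanine restricted library 2 (4342) and TK1 in branched-chain control library 1 (875). RRM1 was low in phenylalanine restricted library 2 (1310.4) and leucine restricted library 4 (2196), and RRM2B in branched-chain control library 1 (468) and valine restricted library 2 (303). DCK was low in valine restricted library 2 (509) and high in branched-chain control library 4 (1044). Of the 17, 12 fell in the 4 libraries that were high in ribosomal protein mRNA; the part of that RNA in them was not tested.

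Responses called in opposite directions differed in 5 tests. DTYMK rose under histidine and fell under tryptophan restriction (difference 1.16). RRM1 rose under leucine restriction and fell under histidine (difference from leucine -0.67), methionine (-2.05), phenylalanine (-0.81) and tryptophan (-1.99) restriction; the leucine call itself was lost in 9 of 16 alternatives.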

How the results depend on the processing

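Of the 27 member calls, 22 held in every alternative run, and the other 5 (TK1 in histidine and valine, RRM1 in leucine, DUT in phenylalanine, DCK in tryptophan) are given with their values in the report. With libraries scaled to equal totals the median over all genes moved by 0.13 in methionine, 0.12 in phenylalanine, 0.25 in tryptophan and 0.11 in valine, and uncalled values changed sign in phenylalanine for TYMS (0.0435) and DCK (0.0806) and in valine for DUT (0.0926) and DCK (0.0228). Without both libraries high in ribosomal protein mRNA, an omission chosen after seeing the data, 1 member was called higher in phenylalanine (RRM2B) and 1 in valine (DTYMK), and uncalled DCK became 0.0726 in phenylalanine and, in valine, DUT 0.0854 and DCK 0.039. Members called higher in leucine numbered 0 with no filter. The labels do not say whether same-numbered libraries share a batch. In no comparison did every pair correlate above 0.1 (range -0.19 to 0.19 over the comparisons), nor did every library correlate best with its own number. In valine all pairs were positive (0.04 to 0.19), and in leucine and valine 2 of 4 correlated best with their own number. Whether a batch was shared was not tested. A replicate block left 0 members higher in leucine and 2 lower in phenylalanine, changed no other member call, and gave uncalled values of the other sign for RRM2 in isoleucine (-0.0387) and leucine (-0.20) and for DCK in valine (0.0668). In the branched-chain comparisons the block also left out restricted library 2, which has no control of its number. Leaving out that library alone gave the same values for RRM2 in isoleucine and leucine and for DCK in valine. No paired test of the small subunit ratio was run. When single libraries were left out, the members called higher in leucine ranged from 0 to 2 (1 with all libraries). In valine those higher ranged from 0 to 1 (0 with all libraries) and those lower from 0 to 1 (1 with all libraries). Members called lower ranged from 3 to 4 in histidine and from 2 to 3 in phenylalanine. Over those omissions, uncalled values crossed 0 for DCK in phenylalanine (-0.13 to 0.0304); in isoleucine for RRM2 (-0.24 to 0.62), TYMS (-0.24 to 0.0200), DUT (-0.0456 to 0.18) and TK1 (-0.18 to 0.0137); in leucine for RRM2 (-0.34 to 0.53), DUT (-0.15 to 0.0749) and DTYMK (-0.30 to 0.0467); and in valine for RRM2 (-0.83 to 0.0423), TYMS (-0.0291 to 0.24), DUT (-0.0871 to 0.15) and DCK (-0.15 to 0.0668). The small subunit ratio difference ran from -0.14 to 0.34 in phenylalanine, -0.54 to 0.32 in isoleucine, -0.58 to 0.28 in leucine and -0.60 to 0.33 in valine. The cause of these shifts was not tested. Tests that passed between responses numbered 68 to 71 of 168 under other pseudocounts and scalings.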
